A study of Mus musculus with 10 samples.

Results

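Cultures grown from mouse inguinal fat carried low levels of transcripts of skeletal muscle, the subject here. The list holds 38 of the 28987 genes in the files. It covers 3 regulators of muscle formation, 5 embryonic or perinatal isoforms, 15 contractile filament genes, 5 genes of the Z-disc and giant filaments, 6 genes of excitation and calcium handling and 4 genes of muscle metabolism. The genes were chosen by name with results of these libraries in view, for a comparison by replicate number. Differences in TPM between replicates are therefore the values that chose them, and they are given as a description and support nothing. Of the 38, 31 reached 1 TPM (a relative abundance of transcripts within a library, scaled by transcript length) in at least 2 of the 10 libraries and were tested, among 14166 tested genes. Genes had to be high in some library to be among the 31, so these are not all the listed genes.

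RNA sequencing was done on primary cells from the inguinal white fat of male C57BL/6 mice 6 to 8 weeks old, obtained by enzyme digestion, filtered and grown to confluence. There were 5 groups of 2 libraries, each exposed for 24 h to one of 5 agents: saline, which is the control, recombinant BAFF at 500 ng/ml, recombinant APRIL at 500 ng/ml, lipopolysaccharide (LPS) at 100 ng/ml or norepinephrine at 1 mM. BAFF and APRIL are ligands of the tumour necrosis factor family, LPS is a bacterial wall component that activates innate immunity, and norepinephrine is the transmitter that drives fat breakdown. No genetic change or further treatment is named for any group, and nothing states that the replicates are separate mice or separate cultures. The p-values then reflect library-to-library spread alone, which may be technical. Each library lists TPM and no read counts, so its depth, and with it the counting error of the low values below, is unknown.

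The APRIL group differed from the rest. Across tested genes the correlation of the libraries labelled APRIL with the others was 0.850 to 0.886, against 0.948 to 0.991 among the others. Genes of the Y chromosome (the sum of Uty, Kdm5d, Ddx3y and Eif2s3y) reached 0.489 and 0.775 TPM in them and 93.8 to 123 TPM elsewhere, which goes against the male label. Results are therefore given with and without these libraries. Of 8 adipocyte markers 7 were tested, and the summed level ran from 2197 TPM (APRIL replicate 2) to 14174 TPM (norepinephrine replicate 2). Leptin was the untested marker and stayed under 1 TPM in every library.

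Skeletal muscle arises when precursor cells switch on regulators of the MyoD family, leave the cell cycle and fuse into multinucleated fibres. Newly formed fibres first make embryonic and perinatal versions of myosin and of the acetylcholine receptor, and later replace them with adult fast or slow versions. The fibres contract by sliding actin and myosin filaments, under the control of troponin and of calcium released from the sarcoplasmic reticulum.

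The listed genes, tested or not, can be set beside their promoters. Of the 38 genes, 32 matched an entry in the RefSeq promoter table (GRCm38.p6), with 36 promoters in all, and the 250 bases before each start site were searched. The E-box CAGCTG, the core to which MyoD-family factors bind and its own reverse complement, was in 18 of the 36 (50%), against 13% of all 32851 promoters of the same length. The E-box CACCTG, read on both strands, was in 16.7% of them and in 17.2% of all promoters. The site of MEF2, a partner of the MyoD family, was in 13.9% against 2.92%, the CArG box of serum response factor in 13.9% against 1.47% and TATAAA, on the sense strand, in 13.9% against 7.59%. Windows of Ldb3, Mb and Tnni1 overlap, so that the same site is counted again. By gene, CAGCTG was found for 16 of 32 and the CArG box for 4 of 32. The MEF2 and CArG patterns can themselves hold TATAAA, though in the windows of the members 0 matches of different motifs overlapped. Such a match describes letters and is neither evidence of binding nor of a cause.

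These 6 windows all hold a match and show how the motifs lie in some of the members. Each match is in capitals, and all are written 5′ to 3′ on the gene's own strand. Windows without any match, such as that of Myog, are not shown. Acta1 (chr8:123894776-123895025, minus strand, first base of CAGCTG at -221, CArG box at -73 and TATAAA at -7 from the start site) encodes the muscle actin. Mylpf (chr7:127211358-127211607, plus strand, CAGCTG at -51) is the most abundant member. Myh8 (chr11:67276874-67277123, plus strand, MEF2 site at -99) is the perinatal myosin. Chrng (chr1:87205561-87205810, plus strand, CAGCTG at -155 and -132) and Chrna1 (chr2:73580339-73580588, minus strand, CAGCTG at -92 and -44, CACCTG on the opposite strand at -73) encode receptor subunits. Pygm (chr19:6384158-6384407, plus strand, CAGCTG at -168 and -8) is the member whose levels departed from the rest.
Acta1: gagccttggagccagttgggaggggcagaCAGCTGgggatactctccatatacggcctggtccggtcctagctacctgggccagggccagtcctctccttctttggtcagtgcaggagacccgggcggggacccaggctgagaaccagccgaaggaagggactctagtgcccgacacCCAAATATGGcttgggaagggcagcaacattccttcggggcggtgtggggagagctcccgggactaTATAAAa
Mylpf: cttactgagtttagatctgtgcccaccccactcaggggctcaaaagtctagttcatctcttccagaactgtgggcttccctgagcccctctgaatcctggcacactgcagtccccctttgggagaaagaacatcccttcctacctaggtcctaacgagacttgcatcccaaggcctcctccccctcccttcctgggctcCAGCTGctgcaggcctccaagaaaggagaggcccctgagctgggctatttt
Myh8: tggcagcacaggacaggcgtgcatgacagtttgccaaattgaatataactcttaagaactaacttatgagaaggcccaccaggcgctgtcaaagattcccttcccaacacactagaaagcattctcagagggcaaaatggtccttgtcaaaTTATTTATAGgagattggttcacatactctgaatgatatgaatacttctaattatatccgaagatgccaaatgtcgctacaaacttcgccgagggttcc
Chrng: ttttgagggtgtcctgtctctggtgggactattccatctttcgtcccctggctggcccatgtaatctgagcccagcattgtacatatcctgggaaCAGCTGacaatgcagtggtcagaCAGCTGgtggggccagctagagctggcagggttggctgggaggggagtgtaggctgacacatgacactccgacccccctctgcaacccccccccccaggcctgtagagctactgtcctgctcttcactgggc
Chrna1: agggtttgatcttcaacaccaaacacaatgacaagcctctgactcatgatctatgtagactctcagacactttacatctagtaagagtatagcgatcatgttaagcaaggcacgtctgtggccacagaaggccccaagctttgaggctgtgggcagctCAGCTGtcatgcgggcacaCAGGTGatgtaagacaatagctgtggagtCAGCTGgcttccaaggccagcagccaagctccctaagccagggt
Pygm: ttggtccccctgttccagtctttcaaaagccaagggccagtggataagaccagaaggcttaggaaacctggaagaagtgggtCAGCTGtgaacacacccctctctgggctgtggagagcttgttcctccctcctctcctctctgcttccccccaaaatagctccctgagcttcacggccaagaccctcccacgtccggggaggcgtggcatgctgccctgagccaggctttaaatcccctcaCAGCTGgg
The windows of Mylpf and Chrng lie within the spans that GENCODE gives these genes, because RefSeq starts them further downstream. In Pygm the last bases of the window also overlap the GENCODE span.

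In each of 4 groups (saline, BAFF, LPS and norepinephrine) the library numbered replicate 2 carried several times more of these transcripts than replicate 1. Pairs of values below give replicate 1 first. The 38 genes summed to 46.1 and 324 TPM in saline, 62.5 and 255 in BAFF, 37.5 and 280 in LPS, and 61.7 and 436 in norepinephrine. In the libraries labelled APRIL the order was the other way, 288 and 83.3 TPM. At the highest, in norepinephrine replicate 2, the members made up 0.0454% of the listed transcripts, and at the lowest, in LPS replicate 1, 0.00390%. The number of members at 1 TPM or more was 29 to 31 in the replicate 2 libraries of those 4 groups and 8 to 12 in their replicate 1 libraries. In the libraries labelled APRIL it was 30 and 15. These are bulk samples, in which fewer muscle cells and less RNA per muscle cell cannot be told apart.

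All 31 tested members were higher in replicate 2 than in replicate 1 in each of the 4 groups, as were 15.8% of all tested genes. For 30 of the 31 the order was also reversed in the libraries labelled APRIL (10.2% of all tested genes), Pygm being the exception. In 30 of the 31 every replicate 2 library of the 4 groups lay above every replicate 1 library, where 1.63% of all tested genes did so, and the exception was Ldb3. The members were chosen by this contrast, and nothing is read from these counts.

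**Figure D1:**
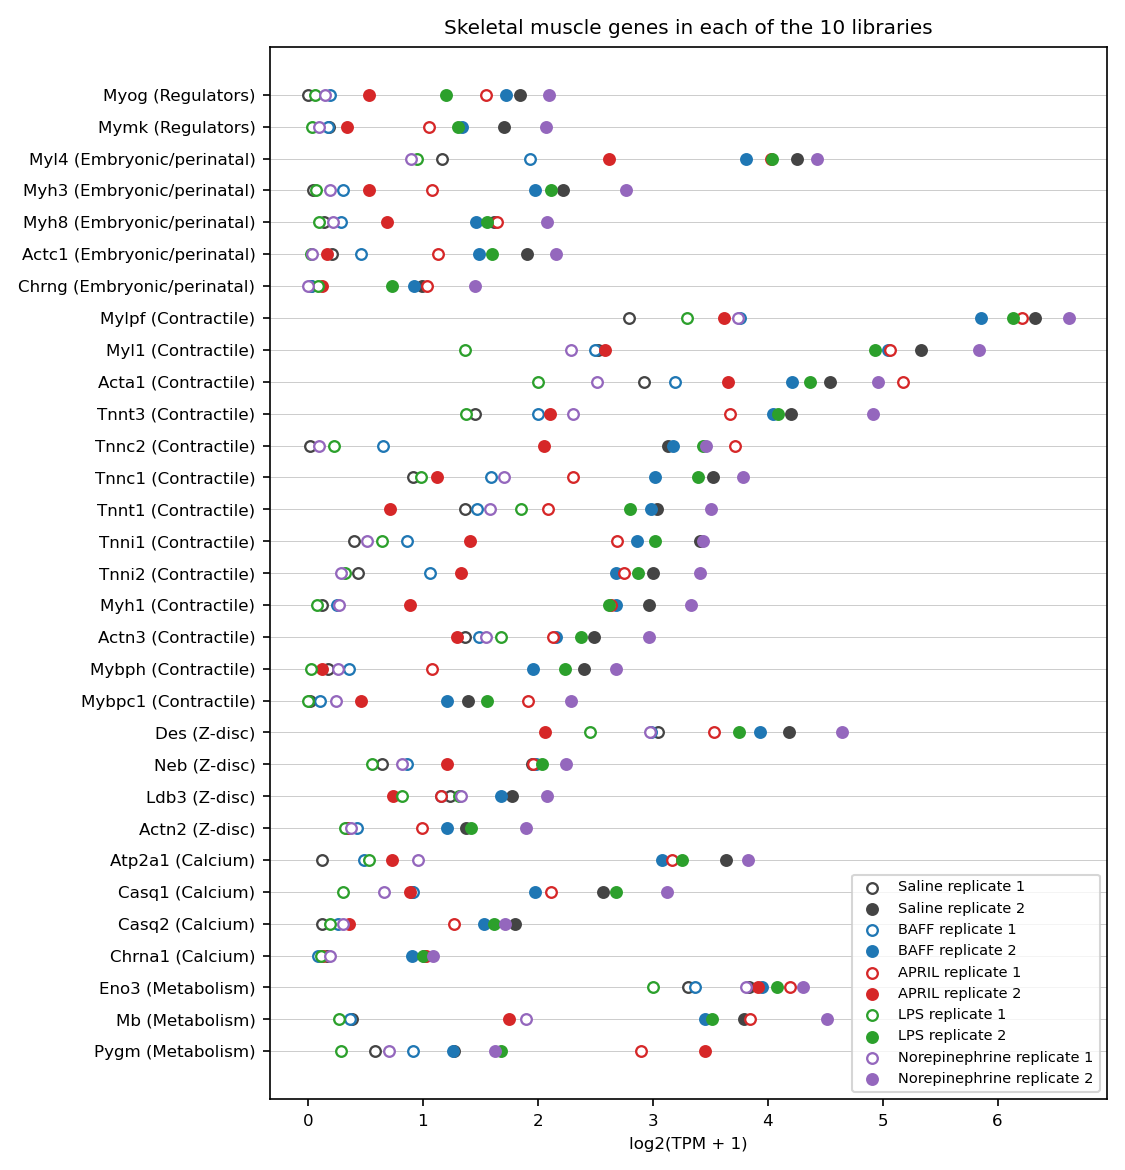
Level of each of the 31 tested muscle genes, as log2(TPM + 1) on the horizontal axis, in each of the 10 libraries. Open circles are replicate 1, filled circles replicate 2, and colours are the groups. Filled circles of saline, BAFF, LPS and norepinephrine sit to the right of the open circles of those groups in 30 of the 31 genes, and the red circles of APRIL are in the opposite order in all but Pygm.

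Among the regulators, Myog encodes myogenin, which drives myoblasts into differentiation (ENSMUSG00000026459, mm10 chromosome 1, 134289989 to 134292548). It stood at 0 and 2.59 TPM in saline, 0.141 and 2.29 in BAFF, 0.0414 and 1.30 in LPS, 0.105 and 3.28 in norepinephrine, and 1.92 and 0.444 in the libraries labelled APRIL. The replicate 2 libraries of the 4 groups were high, APRIL replicate 1 was in their range, and all others were under 0.5 TPM. Mymk encodes myomaker, the membrane protein needed for myoblast fusion. Its levels were 0.132 and 2.26 TPM in saline, 0.127 and 1.53 in BAFF, 0.0262 and 1.47 in LPS, 0.0666 and 3.21 in norepinephrine, and 1.07 and 0.262 for APRIL. The replicate ranges of the 4 groups did not overlap, and both APRIL libraries lay between them. Myod1, the founding factor of the family, stayed under 1 TPM in every library and was not tested. It was listed at 0, 0.0729, 0 and 0.0203 TPM in the replicate 1 libraries of saline, BAFF, LPS and norepinephrine and at 0.366, 0.299, 0.294 and 0.617 TPM in their replicate 2 libraries. In the libraries labelled APRIL it was at 0.653 and 0 TPM.

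All 5 embryonic and perinatal isoforms could be tested. Myl4, the embryonic and atrial essential light chain of myosin, was the most abundant. It measured 1.24 and 18.1 TPM in saline, 2.82 and 13.1 in BAFF, 0.933 and 15.4 in LPS, 0.857 and 20.6 in norepinephrine, and 15.3 and 5.14 for APRIL. Myh3, the embryonic myosin heavy chain, measured 0.0304 and 3.67 TPM in saline, 0.237 and 2.94 in BAFF, 0.0503 and 3.33 in LPS, 0.139 and 5.80 in norepinephrine, and 1.11 and 0.448 for APRIL. For both genes the ranges of the replicate 1 and replicate 2 libraries of the 4 groups did not overlap. For Myh3 both APRIL libraries fell between these ranges. Myh8, the perinatal heavy chain, Actc1, the actin of heart and developing skeletal muscle, and Chrng, the fetal subunit of the acetylcholine receptor, had means of 2.25 ± 0.662, 2.51 ± 0.747 and 1.07 ± 0.465 TPM (SD, n = 4) over the replicate 2 libraries of those 4 groups. Over the replicate 1 libraries their means were 0.138 ± 0.0664, 0.146 ± 0.168 and 0.0246 ± 0.0261 TPM.

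The contractile filament genes held the most abundant members. Mylpf, the regulatory light chain of fast myosin (ENSMUSG00000030672, mm10 chromosome 7, 127208890 to 127214298), was at 5.94 and 79.4 TPM in saline, 12.5 and 57.0 in BAFF, 8.84 and 69.1 in LPS, 12.4 and 97.4 in norepinephrine, and 73.0 and 11.3 for APRIL. It alone gave 12.9 to 25.3% of the members' summed TPM. Myl1, the essential light chain of fast fibres, was at 4.74 and 39.2 TPM in saline, 4.66 and 32.1 in BAFF, 1.57 and 29.6 in LPS, 3.90 and 56.1 in norepinephrine, and 32.4 and 4.98 for APRIL. In both genes APRIL replicate 1 lay within the range of the replicate 2 libraries of the other groups and APRIL replicate 2 lay at or near the range of their replicate 1 libraries. Acta1, the skeletal muscle actin, was highest in APRIL replicate 1, at 35.3 TPM, with APRIL replicate 2 at 11.6 TPM. In the other groups it measured 3.01 to 8.14 TPM in replicate 1 and 17.5 to 30.2 TPM in replicate 2.

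The troponins, which make contraction depend on calcium, come in a fast set (Tnnc2, Tnni2, Tnnt3) and a slow set (Tnnc1, Tnni1, Tnnt1). The fast set summed to 2.10 and 32.2 TPM in saline, 4.67 and 29.0 in BAFF, 2.01 and 32.2 in LPS, 4.24 and 48.8 in norepinephrine, and 29.6 and 7.98 for APRIL. The slow set summed to 2.79 and 27.3, 4.60 and 20.3, 4.15 and 22.6, 4.69 and 32.9, and 12.6 and 3.47 TPM in the same order. Slow troponins were thus 67.5 to 84.9% of the fast sum in the replicate 2 libraries of the 4 groups, 98.5 to 206% in their replicate 1 libraries, and 42.7 and 43.5% in the libraries labelled APRIL. Both libraries labelled APRIL lay below all 8 others in this share.

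Of the 5 listed myosin heavy chains, 3 were tested: Myh1, Myh3 and Myh8. The genes Myh3, Myh2, Myh1, Myh4 and Myh8 stand in this order on the plus strand of mm10 chromosome 11, from 67078300 to 67308634. Myh1, the adult fast IIx chain, averaged 6.61 ± 1.79 TPM (SD, n = 4) in the replicate 2 libraries of the 4 groups and 0.135 ± 0.0759 TPM in replicate 1. The neighbours Myh2 (fast IIa) and Myh4 (fast IIb) never passed 0.179 and 0.140 TPM. Embryonic and perinatal chains made up 44.9 to 49.5% of the 5 genes' sum in the replicate 2 libraries, 52.5 to 63.4% in replicate 1, and 37.9 and 54.1% for APRIL. The replicate 1 shares rest on sums of 0.191 to 0.739 TPM.

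**Figure D2:**
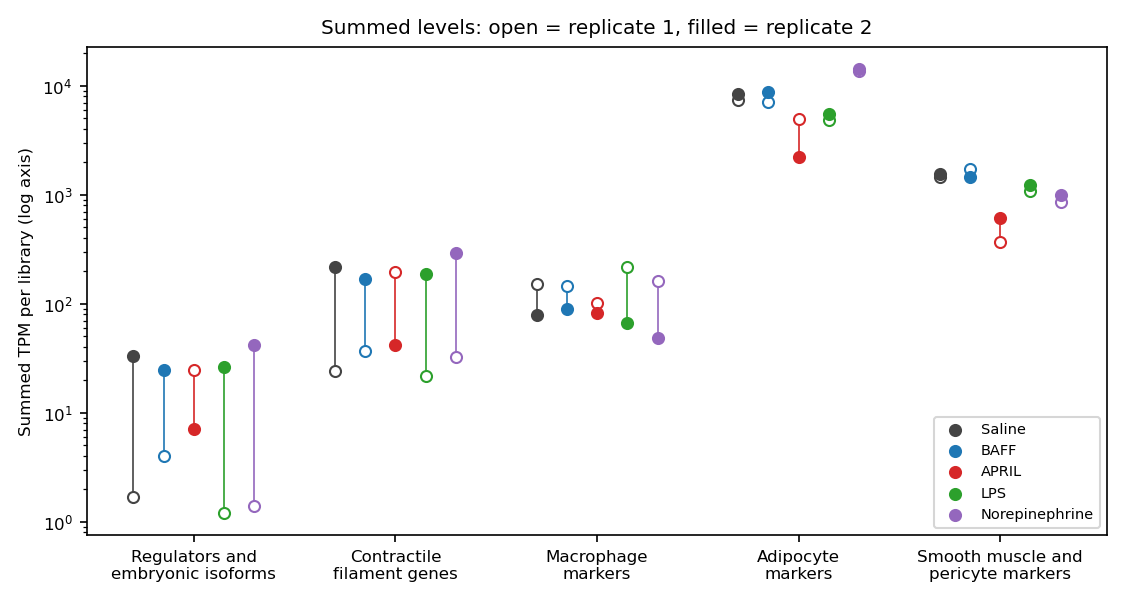
Summed TPM (log axis) in each library for the regulators and embryonic isoforms, the contractile filament genes and markers of other cell types. Lines join the replicates of a group, open circles being replicate 1. The muscle sums differ between replicates by 3.43-fold or more in every group, while the macrophage markers are higher in replicate 1 in every group and the adipocyte and smooth muscle sums differ by 2.27-fold or less.

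Of the Z-disc and giant filament genes, Des, the intermediate filament desmin, was at 7.26 and 17.2 TPM in saline, 6.92 and 14.2 in BAFF, 4.49 and 12.5 in LPS, 6.86 and 24.1 in norepinephrine, and 10.6 and 3.17 for APRIL. Neb encodes nebulin, the ruler of the thin filament. Its levels were 0.563 and 2.85, 0.820 and 2.95, 0.470 and 3.11, 0.766 and 3.74, and 2.88 and 1.32 TPM in that order. The replicate ranges of the 4 groups did not overlap for either gene, and Des in APRIL replicate 2 lay below all other libraries. In Ldb3, a Z-disc adaptor protein, they met: LPS replicate 2, at 1.49 TPM, was just below norepinephrine replicate 1, at 1.51 TPM. Actn2, the Z-disc alpha-actinin, ranged from 0.253 to 2.71 TPM. Ttn, the giant spring protein titin, was not tested and reached at most 0.362 TPM.

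Among the genes of excitation and calcium handling, Atp2a1, the calcium pump of fast fibres, was at 0.0900 and 11.4 TPM in saline, 0.405 and 7.44 in BAFF, 0.442 and 8.52 in LPS, 0.938 and 13.2 in norepinephrine, and 7.99 and 0.656 for APRIL. Casq1, which stores calcium in the reticulum of fast fibres, was at 0.873 and 4.93, 0.881 and 2.94, 0.235 and 5.41, 0.585 and 7.73, and 3.32 and 0.850 TPM in that order. In both genes the high libraries were the replicate 2 libraries of the 4 groups and APRIL replicate 1. Casq2, the calsequestrin of slow and heart muscle, averaged 2.18 ± 0.256 TPM (SD, n = 4) in replicate 2 and 0.167 ± 0.0636 TPM in replicate 1. Chrna1, the alpha subunit of the acetylcholine receptor, averaged 1.00 ± 0.105 and 0.103 ± 0.0370 TPM. Cacna1s, the voltage sensor of the muscle membrane, lay just outside the filter, with 1.06 TPM in saline replicate 2 and less than 1 TPM elsewhere. Chrng lay just inside it, with 1.05 TPM in APRIL replicate 1 and 1.74 TPM in norepinephrine replicate 2. Ryr1, the calcium release channel, reached at most 0.365 TPM.

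Of the metabolic genes, Mb, the oxygen store myoglobin, was at 0.304 and 12.9 TPM in saline, 0.288 and 9.98 in BAFF, 0.207 and 10.4 in LPS, 2.72 and 21.9 in norepinephrine, and 13.4 and 2.36 for APRIL. Norepinephrine replicate 1 was the highest of the 4 replicate 1 libraries. Eno3, the muscle enolase of glycolysis, was at 8.91 and 13.3, 9.32 and 14.4, 7 and 15.9, 13.05 and 18.7, and 17.3 and 14.1 TPM in that order. Taken over the means of the 4 groups it had the smallest ratio between replicates of the 31, which was not so in LPS alone. Pygm, the muscle glycogen phosphorylase (ENSMUSG00000032648, mm10 chromosome 19, 6384399 to 6398459), was at 0.494 and 1.42, 0.884 and 1.40, 0.224 and 2.20, 0.625 and 2.08, and 6.44 and 9.94 TPM. Both libraries labelled APRIL lay above all others for Pygm, and replicate 2 was the higher of them. Ckm, the muscle creatine kinase, is among the most abundant transcripts of adult muscle, and here it reached at most 0.606 TPM.

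The size of the replicate difference varied among members. The ratio of mean TPM in replicate 2 to that in replicate 1, over the 4 groups, ran from 1.63 for Eno3 to 48.9 for Myh1, with a median of 11.5 over the tested members. It was 10 or more for 17 of them, between 4 and 10 for 7, and under 4 for the other 7 (Acta1, Tnnt1, Pygm, Des, Actn3, Ldb3 and Eno3). By role the median was 24.1 for the 7 regulators and embryonic isoforms, 10.6 for the 13 contractile filament genes, 11.4 for the 4 calcium genes, 3.75 for the 4 Z-disc genes and 3.19 for the 3 metabolic genes. The largest ratios divide by replicate 1 means near 0, as with 0.135 TPM for Myh1 and 0.0246 TPM for Chrng, against 9.57 TPM for Eno3. How far the order of genes and roles follows these low levels was not tested. In the libraries labelled APRIL the ratio, taken as replicate 1 to replicate 2, was largest for Mybph, a myosin-binding protein, at 12.4, and below 1 for Pygm, at 0.648.

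Regulators and embryonic isoforms and the contractile filament genes moved in the same direction, and which differed more depended on the scale. On log2(TPM + 1) the median of replicate 1 minus replicate 2 was -1.69 in saline, -1.18 in BAFF, -1.46 in LPS, -1.98 in norepinephrine and 0.96 for APRIL over the 7 regulators and embryonic isoforms. For the 13 contractile genes it was -2.60, -1.61, -2.42, -2.61 and 1.46. Over all tested genes the medians lay between -0.08 and 0.07. The added pseudocount of 1 holds down the differences of low genes. On the ratio scale above, which takes the means of the 4 groups without APRIL, the order was the other way. As a share of the contractile sum, regulators and embryonic isoforms were 14.0 to 15.03% in the replicate 2 libraries of the 4 groups, 4.24 to 10.8% in their replicate 1 libraries, and 12.5 and 16.9% for APRIL. The replicate 1 shares rest on regulator and embryonic sums of 1.20 to 4.01 TPM.

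**Figure D3:**
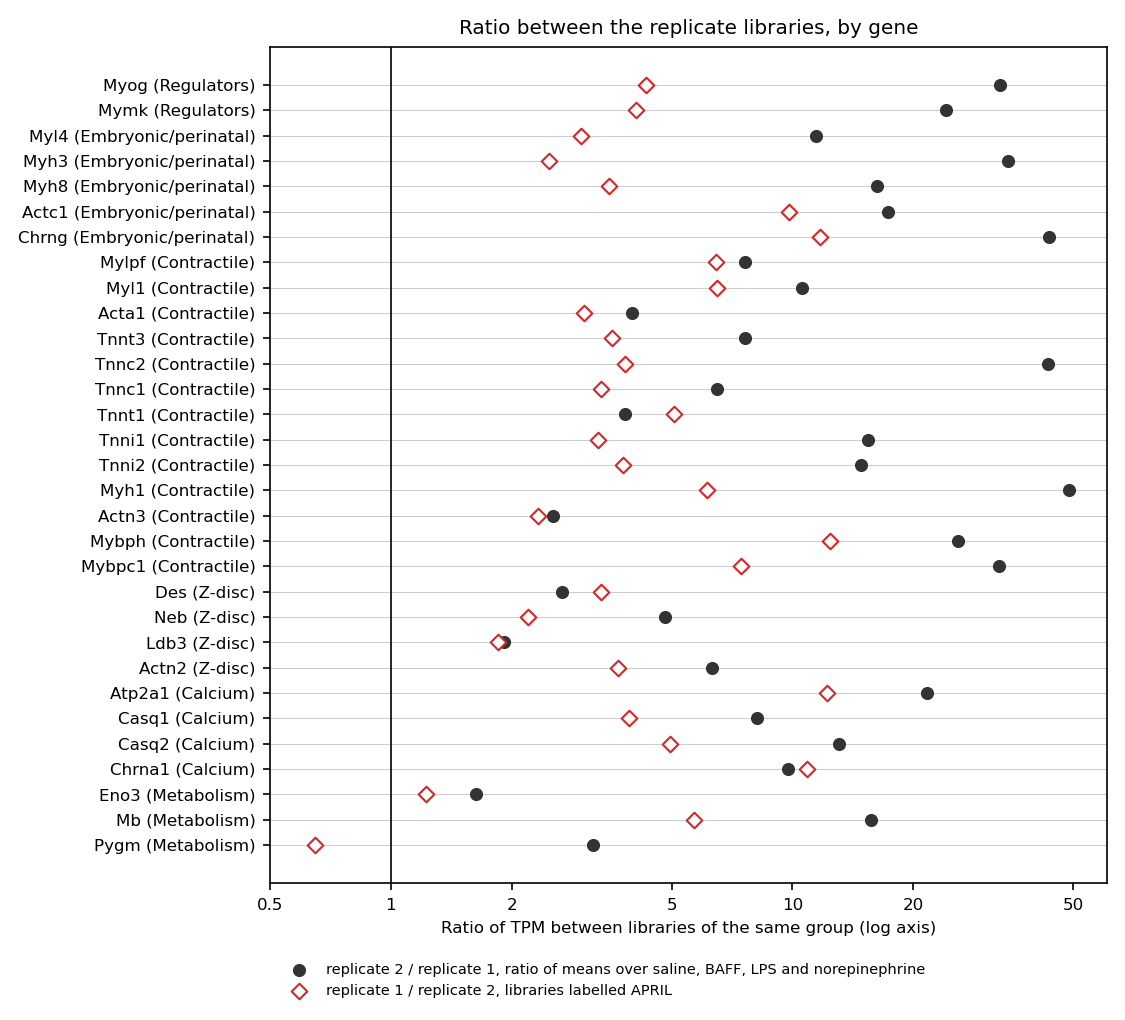
Ratio of TPM between replicate libraries (log axis) for each tested gene. Black circles give mean replicate 2 over mean replicate 1 across saline, BAFF, LPS and norepinephrine, from 1.63 (Eno3) to 48.9 (Myh1). Red diamonds give replicate 1 over replicate 2 for APRIL and lie above 1 in all but Pygm (0.648).

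Treatments were compared with saline by limma on log2(TPM + 1), with p-values adjusted by the Benjamini-Hochberg method over all 14166 tested genes. None of the 31 members passed 0.05 with BAFF (0.0141% of all tested genes did), with LPS (3.8%) or with norepinephrine (0.699%), and none had an unadjusted p under 0.05 there. The smallest adjusted p among them was 0.996 with BAFF, 0.620 with LPS (Ldb3) and 0.554 with norepinephrine (Eno3). The median log2 fold change over the members was -0.04 with BAFF, -0.07 with LPS and 0.22 with norepinephrine, beside 0.11, -0.01 and 0.04 over all tested genes. With median-ratio scaling the median of all tested genes went from 0.11 to 0.000416 with BAFF and from 0.08 to -0.03 for APRIL, and it left the calls among members as they were. The members' standard errors had a median of 0.89 on the log2 scale, against 0.17 over all tested genes. This fit holds no term for the replicate number, so the difference between replicates is part of these errors. Changes of the size of these medians were not detectable in it.

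With APRIL 1 of the 31 members passed, beside 58.1% of all tested genes. Pygm was at 6.44 and 9.94 TPM there and at 2.20 TPM or less in the other 8 libraries. Its log2 fold change was 2.25 ± 0.50 (adjusted p = 0.00604 by limma). Leaving out any 1 of these 4 libraries gave 1.90 to 2.59. In all, 2 of the 31 members, Pygm and Eno3, were above saline in both libraries (42.5% of all tested genes) and 1, Ldb3, was below it in both (35.2%), shares under the background. Eno3 (log2 fold change 0.48 ± 0.38, adjusted p = 0.309) and Ldb3 (-0.56 ± 0.34, adjusted p = 0.200) did not pass. The members' median was 0.07, beside 0.08 over all tested genes. As these libraries go against their label, the comparison is between libraries labelled APRIL and saline.

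Norepinephrine replicate 2 had the highest level of the 4 replicate 2 libraries in 29 of the 31 members, all but Casq2 and Pygm, beside 32.3% of all tested genes. It also had the highest sum of the members, and Chrng passed the filter only through it and APRIL replicate 1. With norepinephrine the members' sum was 1.34-fold that of saline in both replicate numbers. Single members were above saline in both numbers in 21 of 31, beside 42.1% of all tested genes. Members share their libraries and are not replicates of a treatment, so these counts describe single libraries. For regulators and embryonic isoforms the sum was 0.818-fold saline in replicate 1 and 1.28-fold in replicate 2. With LPS the members' sum was 0.814 and 0.864 of saline, and with BAFF 1.36 and 0.785. As means, the sums were 185 ± 197 TPM in saline, 159 ± 136 in BAFF, 159 ± 171 in LPS, 249 ± 264 in norepinephrine and 186 ± 145 for APRIL (SD, n = 2). The spread within each group exceeded every difference between group means. It consists of the difference between replicate numbers, so it does not measure the spread of a comparison within a number. All of these comparisons with saline share the saline libraries.

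The largest estimate with norepinephrine was that of Mb, 1.12 ± 1.67 on the log2 scale (adjusted p = 0.782 by limma). It was -0.59 without saline replicate 1, -0.19 without norepinephrine replicate 2 and as high as 2.82 without another of the 4 libraries, and each of these leaves the replicate numbers unequal. With the replicate number as a block and the libraries labelled APRIL left out, a fit added after the values were seen, it was 1.12 ± 0.20 (adjusted p = 0.0262 by limma). In that fit 1648 of the 14166 tested genes passed, and Mb was the 1 member among them. Mybpc1, a myosin-binding protein of slow fibres, had 0.56 ± 0.89 (adjusted p = 0.794). It turned to -0.12 and -0.46 without the same libraries.

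A replicate term was also fitted with limma. It rests on the contrast that chose the members and so is no test of them. Its counts were 0 of 31 members over all 10 libraries (0% of all tested genes) and 29 of 31 over the 8 libraries not labelled APRIL (2.27%), or with either APRIL library left out alone, and nothing is read from them.

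**Figure D4:**
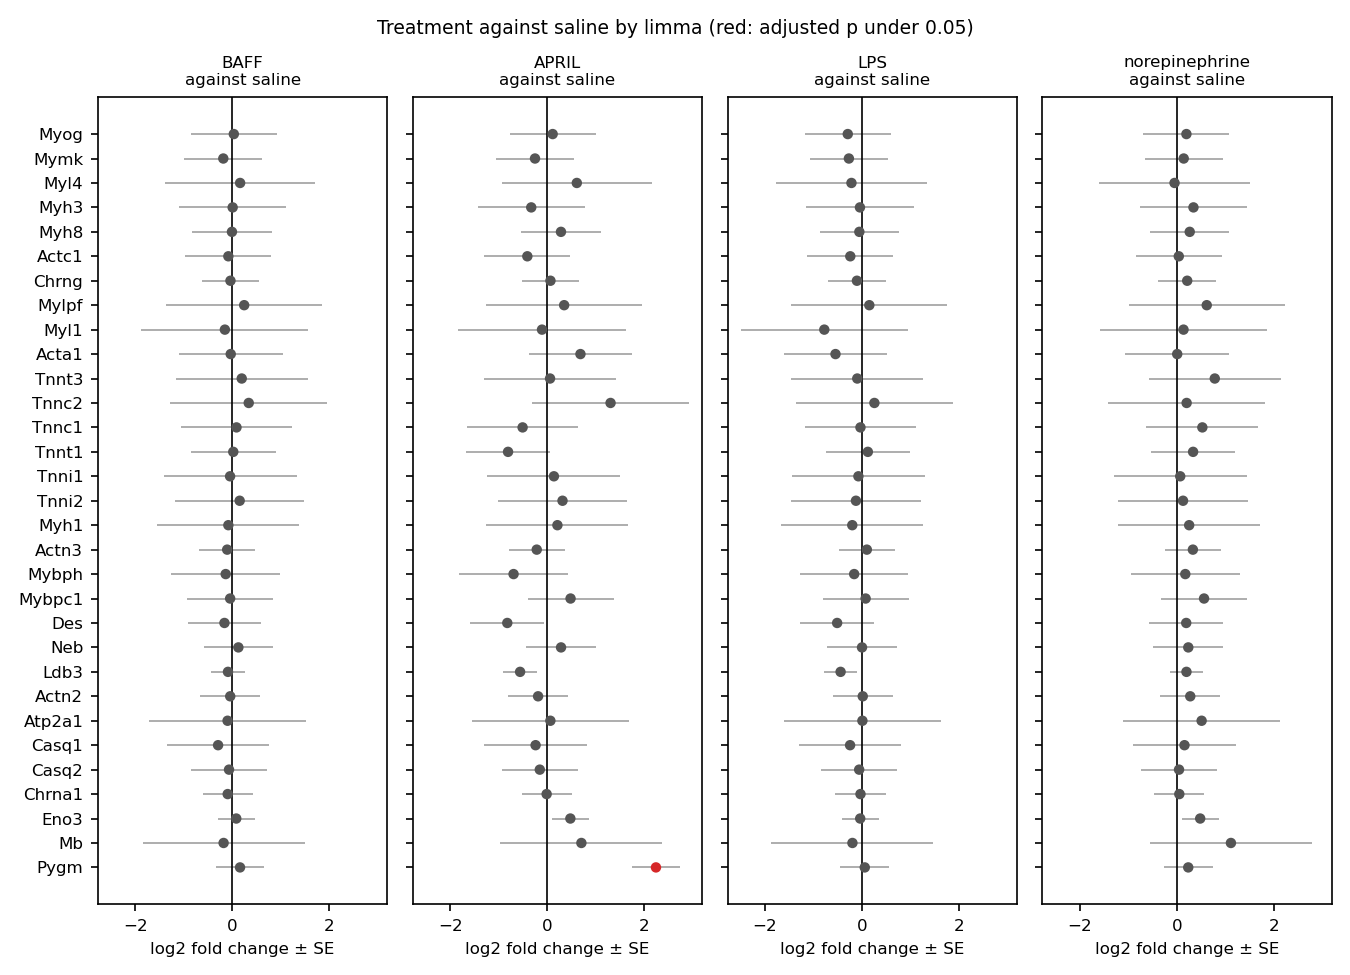
Log2 fold change against saline, on log2(TPM + 1), for the 31 tested members in each treatment, with standard errors from limma as bars. Pygm in the libraries labelled APRIL (2.25 ± 0.50) is the one red point, with an adjusted p under 0.05.

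Markers of other cell types moved with the replicate number in part. Of the 10 muscle fibre markers, all of them members, 6 were tested and higher in replicate 2 in the 4 groups, and Ckm, Myh2, Myh4 and Ryr1 were under 1 TPM in every library. Their sum was 111 to 190 TPM in those replicate 2 libraries and 14.2 to 25.0 TPM in replicate 1. Of the 6 myoblast and satellite cell markers, the members Myog and Chrna1 were tested and higher in replicate 2 in the 4 groups, and 4 were under 1 TPM in every library, Pax7 reaching at most 0.0717 TPM and Myf5 at most 0.0567 TPM. A wider satellite cell and myoblast list had 8 of 15 genes tested. In all 4 groups 2 of these were higher in replicate 2, beside 15.8% of all tested genes, and 1 was lower. The 2 were Megf10, at 0.569 and 1.30 TPM in saline, and Hey1, at 0.233 and 0.533 TPM. The list's sum was 244 to 373 TPM in those 8 libraries and differed little between replicates, as with 249 and 244 TPM in saline. That sum mostly follows a few abundant genes, in saline replicate 1 Sdc4 (90.1 TPM), Dag1 (61.4 TPM) and Vcam1 (39.3 TPM). It therefore says little of the low genes of the list. Macrophage markers went the other way: the 3 tested of 4 (Adgre1, Cd68, Csf1r) were all higher in replicate 1 in the 4 groups, with sums of 102 to 216 TPM in the replicate 1 libraries of all 5 groups and 48.1 to 90.1 TPM in replicate 2. Unlike the muscle genes, their order was not reversed in the libraries labelled APRIL. The fourth, Ptprc, stayed at or under 0.218 TPM. Of the 7 tested adipocyte markers, 5 were higher in replicate 2 in the 4 groups and lower there for APRIL (10.2% of all tested genes). Plin1 went the other way in the 4 groups, with 12.4 and 5.62 TPM in saline. The adipocyte sum differed between replicates by 1.24-fold or less in the 4 groups. No share over all tested genes was counted for genes higher in replicate 1. The part of these cell types in the muscle gene differences was not tested.

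Other skeletal muscle genes followed in part. Of 68 further symbols listed for muscle genes, some of them synonyms, 66 were in the files and 27 were tested. Of the 27, 11 were higher in replicate 2 in all 4 groups (15.8% of all tested genes) and 1 was lower in all 4. Of the 11, 8 were reversed for APRIL as well (10.2% of all tested genes). Smpx, a small muscle protein, was at 0 and 3.33 TPM in saline, 0.507 and 3.14 in BAFF, 0.0379 and 3.49 in LPS, 0.144 and 4.76 in norepinephrine, and 2.86 and 0 for APRIL. Klhl41, which stabilises nebulin, was at 1.52 to 2.64 TPM in the replicate 2 libraries of the 4 groups and at 0.0912 to 0.205 TPM in their replicate 1 libraries, but at 0.582 and 0.588 TPM for APRIL. Against saline none of the 27 passed with BAFF, LPS or norepinephrine, and 7 rose and 7 fell in the libraries labelled APRIL, where 58.1% of all tested genes passed.

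Among tested genes outside these lists, those most like the members' mean log2(TPM + 1) over the 8 libraries not labelled APRIL were Trim72, a membrane repair protein of muscle (r = 0.993), Cobl, an actin nucleator (0.985), Pdlim3, a Z-disc protein (0.985), Asb5 (0.982) and Rpl39l, a ribosomal protein (0.970). Over all 10 libraries r was 0.952 for Trim72, 0.968 for Cobl and 0.986 for Pdlim3, but 0.239 for Asb5 and 0.388 for Rpl39l. These correlations were picked as the highest of all. They describe 8 or 10 libraries that share treatments and replicate numbers. Pdlim3 was at 0.0966 and 1.45 TPM with saline, 0.122 and 1.75 with norepinephrine, and 1.14 and 0.225 for APRIL.

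Some members share sequence with other genes, so that their reads can be assigned to either. The share of a gene's 31-base words found in transcripts of other genes (GENCODE M21) was 59.0% for Tnnc2, shared with Ube2c, 46.4% for Mybph, shared with Adora1, and 42.9% for Myh1, mostly shared with Myh2. It was 34.5% for Myh2, 30.4% for Myh4, 27.7% for Mb and 20.3% for Atp2a1. These shares do not measure the error of a level, and how far the levels of these genes are affected was not tested. The share was 0% for 9 members, among them Myog, Mymk, Mylpf, Tnnt3, Tnni2 and Eno3.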

How the data were processed

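The 10 mouse libraries were made with a TruSeq kit from total RNA, per the labels' protocols. The deposited files hold TPM for 28987 Ensembl genes per library, made by the authors with kallisto on mm10, per the submitters' processing notes. The kallisto version, the annotation release and the summing of transcripts to genes are not given in the sources used here. The listed values sum to 953553 to 964726 TPM, and without counts the depth is unknown.

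The members and all gene lists were chosen with earlier results of these data known. Symbols were matched for 27458 IDs, and positions came from GENCODE M21 (mm10). Genes that reached 1 TPM in 2 or more libraries were fitted with limma (version 3.58.1, R version 4.3.3) on log2(TPM + 1), using trended variances, 5 group means and 5 residual degrees of freedom. P-values were adjusted over all tested genes within a comparison (Benjamini-Hochberg, threshold 0.05). A group of 2 libraries is assumed to vary like the others. TPM divides by the total, so a change in abundant genes shifts all others. The fits were also run on simulated data in which errors were independent between libraries. That run does not cover deviations shared by libraries of the same replicate number. Genes with values in every library were, by rule, the 3 regulators, the 2 members of each other role with the highest mean TPM and every member called. Acta1, Ldb3, Smpx, Klhl41 and Pdlim3 were chosen after their values were seen. Alternatives were pseudocounts of 0.1 and 0.5, a filter at 5 libraries, no filter, median-ratio scaling, only the 4 libraries compared, a replicate block, each library left out, and both libraries labelled APRIL left out. The block without the APRIL libraries was added after the values were seen.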

Additional observations from a re-analysis of the deposited data

Results flagged for a closer look

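The replicate difference had opposite signs between groups. The median over the 31 tested members of replicate 1 minus replicate 2, on log2(TPM + 1), was -1.68 with saline, -1.27 with BAFF, -1.57 with LPS and -2.07 with norepinephrine. For the libraries labelled APRIL it was 1.18. With 1 pair of libraries per group this difference between groups was not tested. The labels do not say what a replicate number shares across groups, and the libraries labelled APRIL also stood apart in Y-linked genes, so the number, the group and the source of the cells cannot be told apart there.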

How the results depend on the processing

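The counts of members called against saline (0 with BAFF and LPS, 1 with APRIL) kept their value under every alternative run, and for norepinephrine the count was 0 in all but one. Pygm was the member called with APRIL each time. With a replicate block the counts were 0, 1, 0 and 0 for BAFF, APRIL, LPS and norepinephrine. Over all 14166 tested genes they were 2, 8531, 683 and 167. With the replicate block and the APRIL libraries left out, 1 member passed with norepinephrine, Mb (log2 fold change 1.12 ± 0.20, adjusted p = 0.0262 by limma). In that fit 1648 of the 14166 tested genes passed with norepinephrine. Correlations of replicate differences across genes were 0.272 to 0.479 among saline, BAFF, LPS and norepinephrine, so that libraries of the same number deviated together there, and -0.108 to 0.0264 between APRIL and these. The labels do not say what a number marks. With the APRIL libraries left out, the count over all tested genes went from 539 to 922 for LPS and from 99 to 843 for norepinephrine, and with the block as well to 1647 and 1648. The replicate term called 0 members with all libraries and 29 with the APRIL libraries left out, and 0 to 29 when each library was left out in turn.

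Leaving out 1 library moved the log2 fold changes from -0.18 to 0.51 for Pygm, -1.12 to 0.54 for Casq1 and -0.35 to 0.18 for Ldb3 with BAFF. With LPS they ran from -1.16 to 0.14 for Des and -1.73 to 0.64 for Acta1, and with norepinephrine from -0.59 to 2.82 for Mb and -0.46 to 1.58 for Mybpc1. None of these was called.

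Medians of the replicate difference grew with a smaller pseudocount, by its construction. With 0.1, in the order saline, BAFF, APRIL, LPS and norepinephrine, they were -3.42, -2.33, 1.85, -3.31 and -3.52 over all tested members and -3.47, -2.84, 1.69, -3.64 and -4.31 over regulators and embryonic isoforms. Over contractile genes they were -3.72 with saline, -2.33 with BAFF, -3.44 with LPS and -3.81 with norepinephrine. With 0.5 they were -2.30, -1.70, -2.29 and -2.68 with saline, BAFF, LPS and norepinephrine over all tested members. Over regulators and embryonic isoforms they were -2.30, -1.70, 1.36, -2.10 and -2.71 in the order of all 5 groups, and over contractile genes -2.11 with BAFF and -2.90 with LPS. The filter at 5 libraries gave -2.12 for all tested members with LPS. The medians kept their sign under every alternative. Over counts of called members, fold changes and medians together, 246 values were labelled unchanged, 30 moved, 14 reversed in sign and 1 stronger. Unchanged meant the same count, the same sign and call, or a median shifted by less than the SD of the medians of the 4 groups. Depth is unknown, which limits every value under 1 TPM.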
